A study of Mus musculus with 4 samples.

Results

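The genes described are the receptor chains of the common gamma-chain cytokine family with the ligands IL-15 and IL-7, in the mouse pro-B cell line Ba/F3. They were chosen by name: Il2ra, Il2rb, Il2rg, Il4ra, Il7r, Il9r, Il21r, Il15ra, Il15 and Il7. A gene was measured if the array's annotation gave at least 1 probe set that symbol and no other, which held for 9 of the 10 members, out of 19935 genes in all. Each of the 9 had 1 such probe set. Il2rg, the gamma chain that the family shares, had none and was not analysed here.

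Ba/F3 cells depend on the growth factor interleukin-3 (IL-3), and the leukaemia fusion kinase BCR-ABL can free them from it. RNA of whole cultures in logarithmic growth was hybridised to 4 Affymetrix Gene 1.0 ST arrays. A Ba/F3 derivative with BCR-ABL under doxycycline control, kept in 500 ng/ml doxycycline, was sampled for 2 arrays without IL-3 (A and B) and for 1 array with IL-3. Unmodified parental Ba/F3 cells with IL-3 gave 1 array, and the labels mention no doxycycline for them. The sources used here do not say whether the derivative is 1 clone, or whether A and B are separate cultures, so their spread may be technical. The series asks which genes BCR-ABL and the growth factor drive in connection with resistance to imatinib, the inhibitor of this kinase. BCR-ABL, doxycycline and the derived line changed together against the parental array, and for A and B the absence of IL-3 did too, so these cannot be told apart.

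Receptors of this family pair the shared gamma chain with other chains. Their cytoplasmic parts signal through the kinases JAK1 and JAK3 to STAT transcription factors. These are above all STAT5 for IL-2, IL-7, IL-9 and IL-15, and STAT6 for IL-4. IL-2 and IL-15 share the beta chain Il2rb and the gamma chain and differ in the alpha chain, Il2ra or Il15ra. Il2ra, also called CD25, is a known target of STAT5, and IL-15 is usually shown to neighbouring cells while bound to Il15ra. IL-7 and its receptor are required for B cell development in the mouse bone marrow.

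Each deposited value was read as a log2 difference from the parental array, which stands at 0 for all 28815 probe sets. Levels were therefore not analysed here, and no member's abundance can be set against another's. Over the 19935 genes the median was 0.004 on A, -0.077 on B and 0.008 on the third BCR-ABL array, the one with IL-3. The gene-wise difference between A and B had an SD of 0.196, and B lay below A for 66.2% of genes. For the IL-3 array the SD was 0.152 against A and 0.222 against B. By this measure the IL-3 array lay nearer to A than B did. In RNA of whole cultures, a change in every cell and a change in the share of cells with the transcript cannot be told apart. Precision is limited throughout by the number of arrays.

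The members split into 3 kinds. Il2ra, Il2rb, Il15ra and Il4ra were higher on all 3 BCR-ABL arrays than on the parental array, and Il2ra stood far above the others. Il15 was lower on all 3, and by the mean of A and B it was the 10th lowest of 19935 genes. Il7r, Il9r, Il21r and Il7 lay within 0.3 of the parental array on each of A, B and the IL-3 array, as did 67.6% of all genes. These values were known when the members were chosen, so they are a description of 4 arrays and no test is attached to them.

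**Figure D1:**
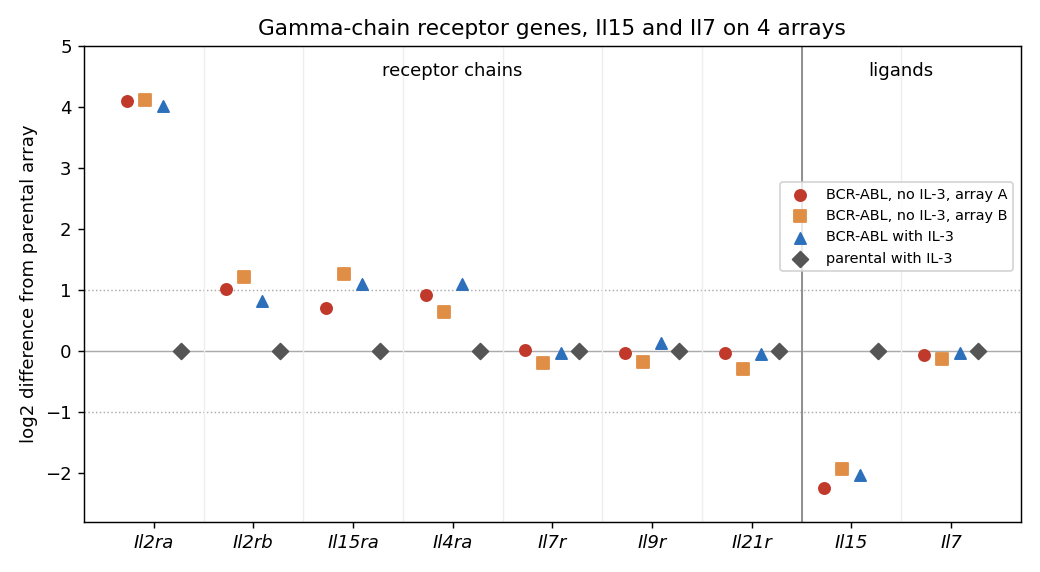
Log2 difference from the parental array (y axis) for the 9 measured members (x axis, receptor chains left, ligands right), 1 point per array, with dotted lines at 2-fold. Il2ra sits at 4.02 to 4.12 on the BCR-ABL arrays and Il15 at -2.25 to -1.94, while Il7r, Il9r, Il21r and Il7 stay between -0.29 and 0.13 beside the parental value of 0.

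The chains of the IL-2 and IL-15 receptors come first. Il2ra, the alpha chain that gives the IL-2 receptor its high affinity, had log2 differences of 4.10 on A, 4.12 on B and 4.02 on the IL-3 array, against 0 on the parental array. The 3 BCR-ABL arrays lay close together and far from the parental one. The mean of A and B was 4.11 ± 0.01 (SD, n = 2), a 17.2-fold difference, and the IL-3 array was 16.2-fold above the parental array. By this mean, and also on the IL-3 array, Il2ra ranked 2nd highest of 19935 genes. The gap of 0.02 between A and B was at the 8.6th percentile of such gaps over all genes.

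Il2rb, the signalling chain that IL-2 and IL-15 share, stood at 1.01 on A, 1.21 on B and 0.81 on the IL-3 array, against 0 on the parental array. Both arrays without IL-3 were at or just past 2-fold and the array with IL-3 was short of it. Their mean was 1.11 ± 0.14 (SD, n = 2), or 2.15-fold, which ranked 189th from the highest. On the array with IL-3 the difference was 1.76-fold and ranked 342nd. Il15ra, which by itself binds IL-15 with high affinity, stood at 0.71 on A, 1.26 on B and 1.09 on the IL-3 array, against 0 on the parental array. All 3 BCR-ABL arrays were above the parental array, but A and B disagreed on the size. The mean was 0.99 ± 0.38 (SD, n = 2), which corresponds to 1.64-fold on A and 2.39-fold on B. The gap of 0.54 between these arrays was wider than that of most genes, at the 98.6th percentile.

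Il4ra, the chain that binds IL-4 and takes part in the receptors for both IL-4 and IL-13, had differences of 0.91 on A, 0.64 on B and 1.10 on the IL-3 array, against 0 on the parental array. Here the array with IL-3 was the highest and B the lowest. The mean of A and B was 0.78 ± 0.19 (SD, n = 2), or 1.71-fold, and ranked 458th from the highest. On the IL-3 array Il4ra was 2.14-fold above the parental array and ranked 183rd.

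The chains that pair with the gamma chain in the IL-7, IL-9 and IL-21 receptors stayed near the parental value. Il7r stood at 0.01 on A, -0.20 on B and -0.03 on the IL-3 array. Il9r stood at -0.03 on A, -0.18 on B and 0.13 on the IL-3 array. Il21r stood at -0.04 on A, -0.29 on B and -0.05 on the IL-3 array. In all 3 genes B was the lowest array, as B was below A for most genes. Their means over A and B were -0.10 ± 0.15, -0.11 ± 0.11 and -0.16 ± 0.18 (SD, n = 2 each), beside a median of -0.04 over all genes. These SDs hold nothing of the spread of the parental array. For Il7r, and for Il7 below, the stored log2 signal was under 8 on at least 1 array, in the lower part of the scale. The same was seen for 38.9% of all probe sets. The sign used can miss such signals, so the other members are not shown to lie above 8.

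The ligands parted. Il15, the cytokine that sustains natural killer and memory T cells, stood at -2.25 on A, -1.94 on B and -2.03 on the IL-3 array, against 0 on the parental array. The 3 BCR-ABL arrays did not overlap the parental value and the IL-3 array lay between A and B. The mean of A and B was -2.09 ± 0.22 (SD, n = 2), which made Il15 4.26-fold lower than in parental cells. On the IL-3 array it was 4.07-fold lower and 7th lowest of all genes. Il7, the other ligand measured, stood at -0.06 on A, -0.13 on B and -0.04 on the IL-3 array, with a mean of -0.10 ± 0.05 (SD, n = 2). For Il15 and Il15ra, a ligand and its own alpha chain, the differences thus had opposite signs on all 3 BCR-ABL arrays.

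Read against the whole table, 2 of the 9 members, Il2ra and Il2rb, were at least 2-fold higher on both A and B than on the parental array, where 0.903% of genes were, and 1 member, Il15, was at least 2-fold lower, where 0.406% of genes were. Il2rb was just inside this limit with 1.01 on A, and Il4ra and Il15ra were just outside it with 0.91 and 0.71 on A. With B alone Il15ra also counted, which made 3 members higher. With the limit at 1.5-fold there were 4, against 3.18% of genes. The median over the 9 members was -0.10, beside -0.04 over all genes. The members were picked with these differences known, so nothing is read from the counts.

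**Figure D2:**
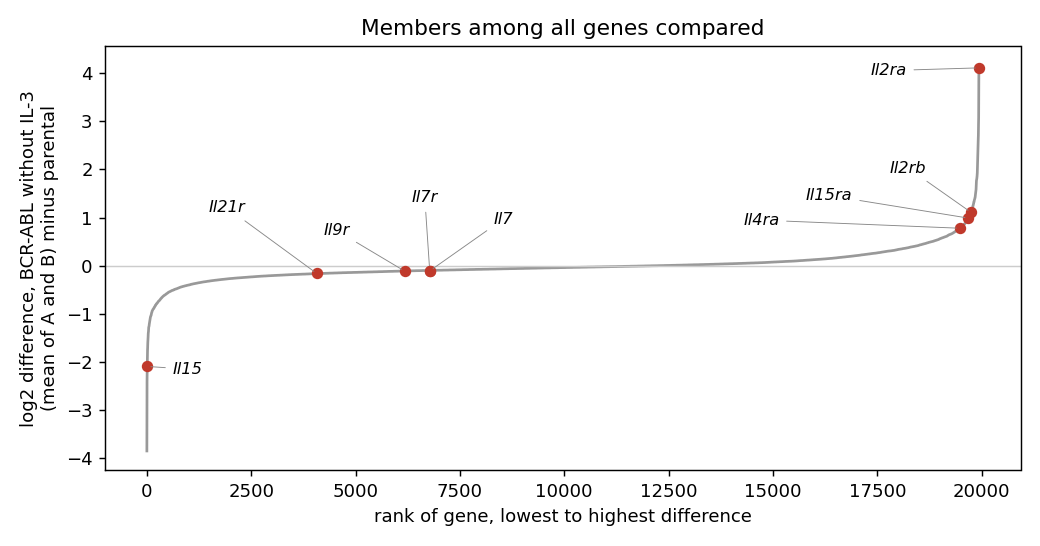
All 19935 genes ranked by the log2 difference of BCR-ABL cells without IL-3 (mean of A and B) from the parental array (y axis), with the 9 members marked. Il2ra and Il15 lie at the 2 ends, with Il2rb, Il15ra and Il4ra on the upper bend and the other 4 members on the flat part.

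The BCR-ABL array with IL-3 and the parental array both had IL-3, so they differ in BCR-ABL, doxycycline and the derived line alone as far as the labels say. There is 1 array on each side, which gives no test. Past 2-fold were Il2ra, Il4ra and Il15ra on the high side, 3 of 9 members where 1.1% of genes were, and Il15 on the low side, where 0.517% of genes were. Il2rb was short of 2-fold. This comparison shares the parental array with the one above.

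Il2ra and Il15ra are next to each other on chromosome 2, and Il4ra and Il21r on chromosome 7, in the order of protein-coding genes in the RefSeq table for GRCm38.p6. Both genes of the first pair were higher in BCR-ABL cells, and in the second pair only Il4ra was among those past 1.5-fold. On the other side of Il2ra lies Rbm17, which encodes a splicing factor and which was singled out after its values were seen. Rbm17 stood at 0.54 on A, 1.32 on B and 0.97 on the IL-3 array, against 0 on the parental array. Like Il15ra it was high on B and lower on A, and its gap between A and B was at the 99.6th percentile. Fbh1, a DNA helicase gene on the far side of Il15ra, stood at -0.17 on A, 0.15 on B and 0.01 on the IL-3 array. The nearest neighbours of Il15, Inpp4b and Zfp330, stayed nearer to 0, with -0.38 and 0.26 on A, -0.06 and 0.17 on B, and -0.13 and 0.23 on the IL-3 array.

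RefSeq promoter windows of GRCm38.p6 were at hand for 7 of the 10 members. The 250 bases before each start are printed for the higher members Il2ra, Il15ra (which has 2 listed starts) and Il4ra, and for Il7r, which stayed near the parental value and holds the 1 STAT-type match. Each runs 5′ to 3′ on the gene's strand, and capitals mark a match to 1 of 3 motifs searched on both strands. These were TTCNNNGAA, the palindrome bound by STAT5 and other STAT factors, GGGANNNNCC, a loose form of the NF-kB site, and GAAANNGAAA, a core of the interferon-response element.
Il2ra, chr2:11642542-11642791, plus strand: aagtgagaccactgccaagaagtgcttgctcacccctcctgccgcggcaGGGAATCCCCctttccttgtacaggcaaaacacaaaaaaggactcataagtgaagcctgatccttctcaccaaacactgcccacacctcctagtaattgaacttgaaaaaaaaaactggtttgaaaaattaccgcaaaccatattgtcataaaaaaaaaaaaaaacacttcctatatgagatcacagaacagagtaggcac
Il15ra (first start), chr2:11705043-11705292, plus strand: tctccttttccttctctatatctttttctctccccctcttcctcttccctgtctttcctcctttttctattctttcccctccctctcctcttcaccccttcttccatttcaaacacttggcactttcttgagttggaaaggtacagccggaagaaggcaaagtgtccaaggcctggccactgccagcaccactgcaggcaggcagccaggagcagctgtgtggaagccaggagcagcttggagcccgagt
Il15ra (second start), chr2:11705462-11705711, plus strand: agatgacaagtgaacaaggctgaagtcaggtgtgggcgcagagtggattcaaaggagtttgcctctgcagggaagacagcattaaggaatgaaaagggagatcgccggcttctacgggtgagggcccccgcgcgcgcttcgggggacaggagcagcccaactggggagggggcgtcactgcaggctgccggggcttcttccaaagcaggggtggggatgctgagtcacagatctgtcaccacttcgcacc
Il4ra, chr7:125552021-125552270, plus strand: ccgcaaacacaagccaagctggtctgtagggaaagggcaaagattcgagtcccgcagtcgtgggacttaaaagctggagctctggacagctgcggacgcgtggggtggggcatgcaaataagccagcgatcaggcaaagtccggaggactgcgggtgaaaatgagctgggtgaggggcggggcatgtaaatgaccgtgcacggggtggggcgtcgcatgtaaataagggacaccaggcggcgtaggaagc
Il7r, chr15:9529877-9530126, minus strand: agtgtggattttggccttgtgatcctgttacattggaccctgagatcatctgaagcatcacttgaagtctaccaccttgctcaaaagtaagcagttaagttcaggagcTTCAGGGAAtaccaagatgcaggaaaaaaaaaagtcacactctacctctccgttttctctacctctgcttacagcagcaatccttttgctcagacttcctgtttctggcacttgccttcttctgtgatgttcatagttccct
The Il2ra window holds GGGAATCCCC, a match to the NF-kB motif between 201 and 192 bases before the start. That motif is common, and 17.6% of all 32851 RefSeq windows of this length hold it. The Il7r window holds TTCAGGGAA, a match to the STAT motif, which 7.02% of all windows hold. The windows of Il15ra and Il4ra held no match to any of the 3 motifs, and the interferon motif, found in 2.98% of all windows, was in none of the members' windows. Il21r, near the parental value, also held an NF-kB match. These letters describe 250 bases and say nothing of sites elsewhere.

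The next comparison asked what IL-3 adds when BCR-ABL is on, and it does not use the parental array, though it shares A and B with the first. BCR-ABL cells with IL-3 (n = 1) were set against BCR-ABL cells without it (n = 2) in limma over all genes, where the lone array is assumed to vary like A and B. None of the 9 members was called at an adjusted p under 0.05, where 0.00502% of genes were, and the count at an unadjusted p under 0.05 was 0 of 9 members and 901 of 19935 genes. The array with IL-3 lay above both A and B for 3 members, below both for 2 and between them for 4.

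Il2ra differed by -0.09 between cells with and without IL-3 (SE 0.15, 95% interval -0.41 to 0.23), so with IL-3 it had 0.94 times the transcript, with an interval of 0.75 to 1.18 times. Il15 differed by 0.06 (SE 0.17, interval -0.28 to 0.41). For these genes, which lay furthest from the parental array, an effect of IL-3 as large as 1.5-fold was outside the interval. That interval takes its spread from A and B, which may be technical, so it may not cover variation between cultures. Il2rb was lower with IL-3 than on either array without it, by 0.29 on average (-0.29, SE 0.16, interval -0.63 to 0.04, limma unadjusted p = 0.0807, adjusted p = 1). Il4ra was above both arrays, by 0.32 (SE 0.16, interval -0.02 to 0.67, limma unadjusted p = 0.0637, adjusted p = 1). Their intervals reach 0.65 times for Il2rb and 1.59 times for Il4ra, so changes of up to that size are not excluded by these arrays.

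Il15ra differed by 0.10 (SE 0.19, interval -0.30 to 0.50), and its sign depended on the array, with 0.37 against A and -0.17 against B. Il9r was higher than on both arrays by 0.23 (SE 0.16, interval -0.09 to 0.56). Il7r, Il21r and Il7 differed by 0.07, 0.12 and 0.06. None of the 3 passed. Over all genes the median difference was 0.034.

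**Figure D3:**
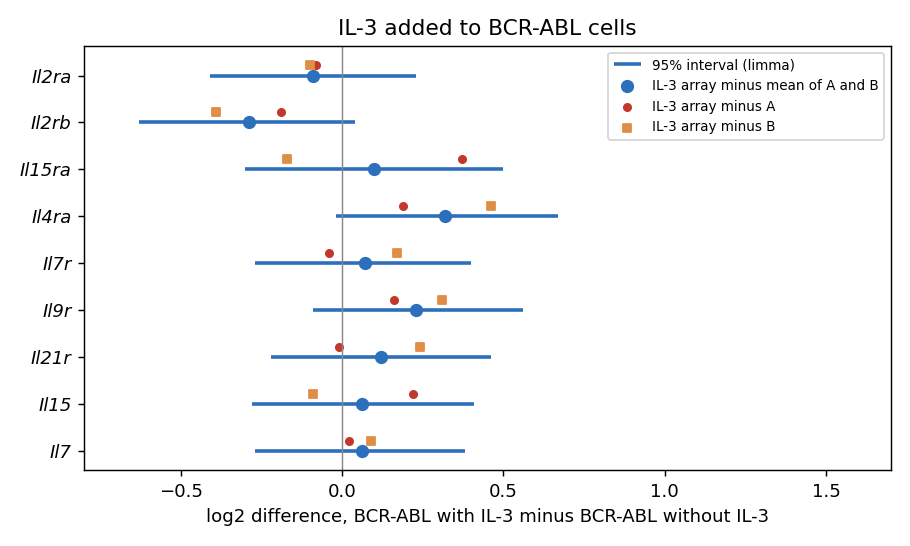
Log2 difference of BCR-ABL cells with IL-3 minus BCR-ABL cells without IL-3 (x axis) for the 9 members, with limma's 95% interval as a bar and the differences from A and from B as small points. Every interval includes 0, and those of Il2rb (-0.63 to 0.04) and Il4ra (-0.02 to 0.67) do so narrowly on opposite sides.

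Other genes of the pathway were taken from lists chosen by name with earlier results of these data known. In limma, BCR-ABL cells without IL-3 against parental cells, 5.19% of all genes were called higher and 2.87% lower at an adjusted p under 0.05, with the lone parental array taken to vary like A and B. Of 9 other ligands and partner chains 2 were called higher and 0 lower (list median -0.05). These were Il4 (log2 1.91, SE 0.19, adjusted p = 3.23e-06), the ligand of Il4ra, and Il13 (log2 2.94, SE 0.17, adjusted p = 3.27e-09), which signals through Il4ra with Il13ra1. Il4 stood at 2.20 on A, 1.63 on B and 1.76 on the IL-3 array, and Il13 at 3.11, 2.76 and 3.21, so both ligands and the chain they share lay above the parental array on all 3 BCR-ABL arrays. With the arrays centred on their medians, Il4 (1.95) and Il13 (2.97) were still called, at far larger adjusted p-values. The ligand genes Il2 (-0.10), Il9 (-0.05) and Il21 (0.09) did not pass. Il13ra1, the partner of Il4ra, did not pass at 0.03.

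Of 7 kinases, STATs and adaptors measured, 0 were called higher and 1 lower (list median -0.20). The called gene was Stat5b at -0.54 (SE 0.15, adjusted p = 0.0353), which stood at -0.56 on A, -0.52 on B and -0.56 on the IL-3 array. Stat5b was no longer called once the arrays were centred on their medians (-0.50, adjusted p = 0.0928). Jak1 (-0.14) and Stat5a (-0.10) did not pass.

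Of 10 targets and feedback genes of these receptors 7 were called higher and 0 lower (list median 0.99, beside -0.04 over all genes). The 4 furthest from the parental array were the survival kinase Pim2 (2.98), the feedback inhibitors Cish (2.06) and Socs1 (1.79), and the cytokine Osm (1.78), each with an SE of 0.15. Pim2 stood at 3.01 on A, 2.95 on B and 3.13 on the IL-3 array, and Socs1 at 1.82, 1.77 and 1.95 on the same arrays. The spread of Pim2 and Socs1 over the BCR-ABL arrays was thus small beside the difference, as it was for Il2ra. Osm varied more, at 1.84 on A, 1.72 on B and 2.17 on the IL-3 array. Not called were Socs3 (0.25), Pim1 (0.36) and Myc (0.18). The remaining called genes were Bcl2 (0.99), Bcl2l1 (0.98) and the cyclin Ccnd2 (0.71). The limma adjusted p-values ran from 7.67e-10 for Pim2 to 0.00602 for Ccnd2, and from 0.000612 for Pim2 to 0.0287 for Bcl2 with the arrays centred on their medians. They rest on the spread of A and B alone, and the list was chosen with these differences known, so its count is no independent evidence. These genes answer to many receptors and kinases, IL-3 and BCR-ABL among them. With IL-3 against without it in BCR-ABL cells 0 of the 26 pathway genes measured were called by limma, and 2 of 26 had an unadjusted p under 0.05, where 901 of 19935 genes did.

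Receptors outside the family were read in the same way. Of 13 other cytokine receptors measured, 0 were called higher and 2 lower (list median -0.04). These were Ifngr1, the ligand-binding chain of the interferon-gamma receptor (-1.11, SE 0.16, adjusted p = 0.000139), and the erythropoietin receptor Epor (-0.70, SE 0.16, adjusted p = 0.00902). The chains of the IL-3 receptor itself did not pass, with Il3ra at -0.51 (adjusted p = 0.054) and Csf2rb at -0.01. With the arrays centred on their medians, Ifngr1 (-1.07) and Epor (-0.66) were still called, Epor only just. Whether the members differ from the other cytokine receptors as a group was not tested.

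**Figure D4:**
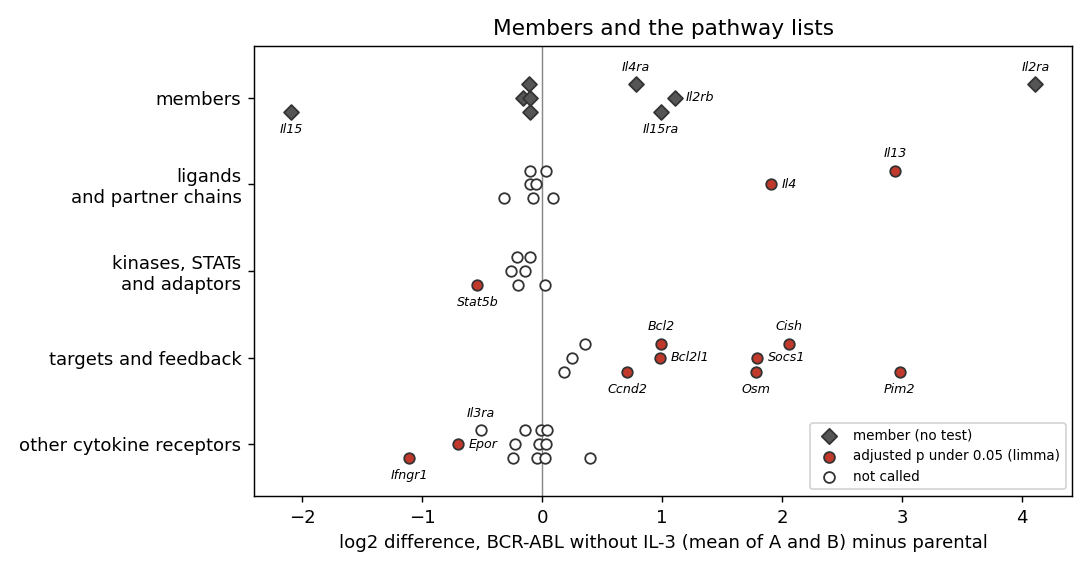
Log2 difference of BCR-ABL cells without IL-3 (mean of A and B) from the parental array (x axis) for the 9 members and for 4 lists, 1 point per gene, with genes called by limma filled red. Called genes lie above 0 among ligands and targets and below 0 among the kinases and STATs and the other receptors.

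For Il2ra, Il2rb and Il15, the members past 2-fold on both A and B, the 4 genes with the nearest log2 differences on A, B and the IL-3 array were found by Euclidean distance over these 3 values, with predicted genes, uncharacterised clone names, olfactory receptors and small RNAs left out. The left-out BC023105 was nearer to Il2ra than any gene listed, at 4.10 on A, 4.23 on B and 4.03 on the IL-3 array. Among the genes kept, the nearest to Il2ra were Usp18 (0.57), Ccl3 (0.70), Slfn2 (1.31) and Milr1 (1.37). Nearest to Il15 were Nme7 (0.32), Rgs2 (0.32), Tspan13 (0.39) and Ampd3 (0.51). Nearest to Il2rb were Dnah8 (0.07), Eif2b3 (0.08), Anxa3 (0.09) and Lcn2 (0.11).

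Il2ra, Il2rb and Il7r are also markers of lymphocytes, so markers of other cells were read beside them. Of 10 markers of T and NK cells 0 were called in either direction (list median -0.13), and the sum of their differences was -0.76 on A, -2.64 on B and -0.51 on the IL-3 array. The T cell antigen receptor chains Cd3d and Cd3e stood at -0.14 and -0.03, and Cd3g, the furthest of the 10 from 0, at -0.50 (adjusted p = 0.0595). Of 7 B lineage markers measured 0 were called (list median -0.12), with Pax5 at -0.14 and Ebf1 at 0.04, and the sums on the same 3 arrays were -0.23, -1.21 and -0.62. Of 9 myeloid and mast cell markers 2 were called higher, the macrophage marker Adgre1 (1.74, SE 0.15, adjusted p = 6.23e-07) and the mast cell protease Cpa3 (3.04, SE 0.17, adjusted p = 3.25e-09), and the list median was 0.07. The other 7 did not pass, among them Kit (-0.17), Fcer1a (0.00), Csf1r (-0.15) and Elane (-0.07), so Adgre1 and Cpa3 make up most of the list sums of 5.02, 4.55 and 4.59 on the same arrays. Of 4 genes listed as stroma markers, Pecam1, which is not confined to stroma, was called higher (0.59, SE 0.16, limma adjusted p = 0.0245). Col1a1 (-0.12), Col1a2 (-0.11) and Pdgfrb (-0.08) did not pass, and the list median was -0.09. The list sums were 0.65, -0.10 and 0.74, of which Pecam1 alone gave 0.67, 0.50 and 0.65. With the arrays centred on their medians, Adgre1 (1.77), Cpa3 (3.07) and Pecam1 (0.62) were still called, Pecam1 only just. The part of the listed markers in the members' differences was not tested. As levels were not analysed here, the pro-B identity of the line could not be checked.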

How the data were processed

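RNA of 4 Ba/F3 samples was labelled with a whole-transcript kit and hybridised to Affymetrix Gene 1.0 ST arrays, per the labels' protocols. The deposited values were read as log2 differences from the parental array: that column is 0 throughout, and 99.8% of the 86431 other values are multiples of 2 to the power -21 to within rounding, which is how finely single precision stores numbers from 4 to 8. Il7r and Il7 held odd multiples, which means a stored number below 8 on some array. Even multiples, as for the other members, do not show that the numbers were above 8. Background correction, normalization, probe summary and the base of the logarithm are not given in the sources used here. Base 2 was taken, which the spacing of the values alone does not settle, and every fold difference rests on it.

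Probe sets with 1 symbol in the platform annotation (21780 of 28815) were averaged into 19935 genes, and samples were grouped by title. Limma (version 3.58.1, R 4.3.3) fitted 3 group means to the 4 arrays. The A to B difference is its 1 residual degree of freedom, moderated towards a prior SD of 0.128 with 16.38 prior degrees of freedom. Two-sided p-values were adjusted over all genes by Benjamini-Hochberg, and the fit was tested on simulated data. The members' differences from the parental array carry no test. The members and lists were chosen with earlier results of these data known. Named genes are all members, up to 4 called genes per list with the largest difference, the main kinases, STATs and IL-3 receptor chains, and the 4 genes nearest to each member past 2-fold on A and B (no predicted genes, olfactory receptors or small RNAs). Other genes named, such as chromosomal neighbours, were added once their values were known. The alternatives tried were median-centred arrays, A or B left out, probe sets with several symbols added, the probe set with the largest difference, a 1.5-fold limit, an adjusted p of 0.1, robust empirical Bayes and a fit of only the groups compared.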

Additional observations from a re-analysis of the deposited data

How the results depend on the processing

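No paired analysis was possible because the labels number only A and B, which belong to 1 group. With the limit at 1.5-fold in place of 2-fold, 4 members in place of 2 were higher on both A and B than on the parental array, since Il4ra and Il15ra then counted. Leaving out A or B gave 2 to 3 higher members and 1 lower member. The other 45 of 46 recomputed counts stayed within 1.5 times the count reported, counts of 0 that remained 0 among them. Each measured member had 1 probe set of its own and none with several symbols. Both probe set alternatives therefore had to leave the members' values as they were, and they say nothing of how stable those values are. In the comparison of BCR-ABL cells with and without IL-3, 0 members were called under centring, both probe set alternatives, robust moderation, the 2-group fit and the adjusted p of 0.1, and the lowest adjusted p of a member was 0.999. Without A or B no residual degree of freedom is left, so the limma counts have no such value. Centring moved Il2ra to 4.14, by more than its very small spread between A and B. It also raised the limma adjusted p-values of the called list genes against the parental array. For those furthest from it the rise was several orders of magnitude, so the size of these p-values depends on this choice. The 1 parental array enters every difference from it, and its own spread was not measured.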
